A study of Homo sapiens with 6 samples.

Results

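Replacement histone variants are histones whose genes are transcribed outside S phase as well as within it and whose proteins can enter chromatin without DNA replication. The 9 genes described here were chosen by name: H1-10, H2AX, H2AZ1, H2AZ2, H2AJ, H3-3A, H3-3B, MACROH2A1 and MACROH2A2. All 9 were found among the 28307 genes of the count table through their Entrez identifiers. The cells were OCI-AML3, a human cell line established from acute myeloid leukaemia. It carries a mutated copy of NPM1 (NPM1c), and the mutant protein is held in the cytoplasm. One group of 3 libraries received an siRNA against NPM1c (siNPM1c) and the other group of 3 libraries received a control siRNA (siControl), each at 10 nM by lipid transfection, with total RNA taken on day 3. The labels give the genotype of every library as WT and a single batch, and every library comes from the same cell line.

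The canonical histones that package newly made DNA come from clustered genes whose transcripts end in a stem-loop in place of a poly(A) tail. Replacement variants are mostly encoded by single genes with introns and polyadenylated transcripts, and they supply nucleosomes to resting cells and to active genes. H2A.Z marks promoters and enhancers, H3.3 marks transcribed and some silent regions, macroH2A is linked to repressed chromatin and to the differentiated state, and H2AX carries the phosphorylation that marks DNA breaks. NPM1 itself is a nucleolar protein that binds histones as a chaperone.

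The libraries held 15075235 to 25190122 counts, of which ribosomal RNA took 69.4% to 71.1% in the siNPM1c group and 63.0% to 64.5% in the siControl group. Protein-coding genes were left with 3414688 to 5358525 counts per siNPM1c library and 4372104 to 6695652 per siControl library. NPM1, the gene whose mutated copy the siRNA targets, had 293, 500 and 350 raw counts in siNPM1c libraries, against 922, 1366 and 922 in siControl libraries, a log2 fold change of -1.10 ± 0.05 (SE). These counts are of the gene as a whole and do not separate the mutated from the normal copy, so the loss of NPM1c itself was not measured. Of the myeloid markers, PTPRC (CD45) averaged 37.2 ± 1.55 depth-scaled counts (CPM) in siNPM1c and 54.9 ± 1.51 CPM in siControl libraries (SD, n = 3 each), SPI1 124 ± 1.8 in siNPM1c and 79.6 ± 1.65 CPM in siControl, and CD33 8.54 ± 0.153 in siNPM1c and 9.04 ± 0.555 CPM in siControl. The progenitor marker CD34 was low, at 0.662 ± 0.129 in siNPM1c and 0.558 ± 0.113 CPM in siControl, and HBB of red cells was at 0 in every library. Of 6 myeloid markers tested 3 rose (SPI1, ANPEP and MPO) and 1 fell (PTPRC), where 42.7% of all tested genes were called in either direction. Of 8 markers of other cell types 2 were tested, and PECAM1 rose, at 52.6 ± 3.82 CPM in siNPM1c and 43.0 ± 0.620 CPM in siControl libraries. The part of these markers in the results was not tested. CPM here means counts relative to the library size after TMM scaling, which takes the bulk of tested genes as level. In bulk RNA, fewer cells of a kind and less RNA per cell cannot be told apart.

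Of the 9 replacement variant genes, 8 passed the filter on low counts and were tested. In siNPM1c against siControl cells 4 rose, namely H2AJ, MACROH2A1, H1-10 and H3-3B, and 3 fell, namely H2AX, H2AZ1 and H2AZ2. H3-3A did not pass the test. Of all 12938 tested genes 42.7% were called at an adjusted p under 0.05, with 21.3% higher and 21.4% lower (2756 and 2766 genes). Without TMM, on library sizes alone, 507 were higher and 9253 lower. The 7 calls among 8 genes are above the share of all genes, and their directions are mixed. Apart from H2AJ, the called members had a mean CPM above that of 86.8% to 97.3% of tested genes, and high counts make small changes easier to call. With a filter of 5 CPM in 3 libraries, 4236 of 7696 genes were called. The changes of H1-10, H2AX, H2AZ1, H2AZ2 and H3-3B were larger in size than those of only 29% to 51.1% of tested genes. The median log2 fold change of the 8 genes was 0.18, beside -0.01 for all tested genes. The groups did not overlap in CPM for any of the 8 tested members, where 49.2% of all tested genes showed such a separation. Summed over all 9 genes, the level was 374 ± 2.89 CPM in siNPM1c and 346 ± 7.83 CPM in siControl libraries. Nothing in the labels says that the 3 libraries of a group came from separate cultures, so the p-values reflect differences among these libraries alone, and that spread may be technical.

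**Figure D1:**
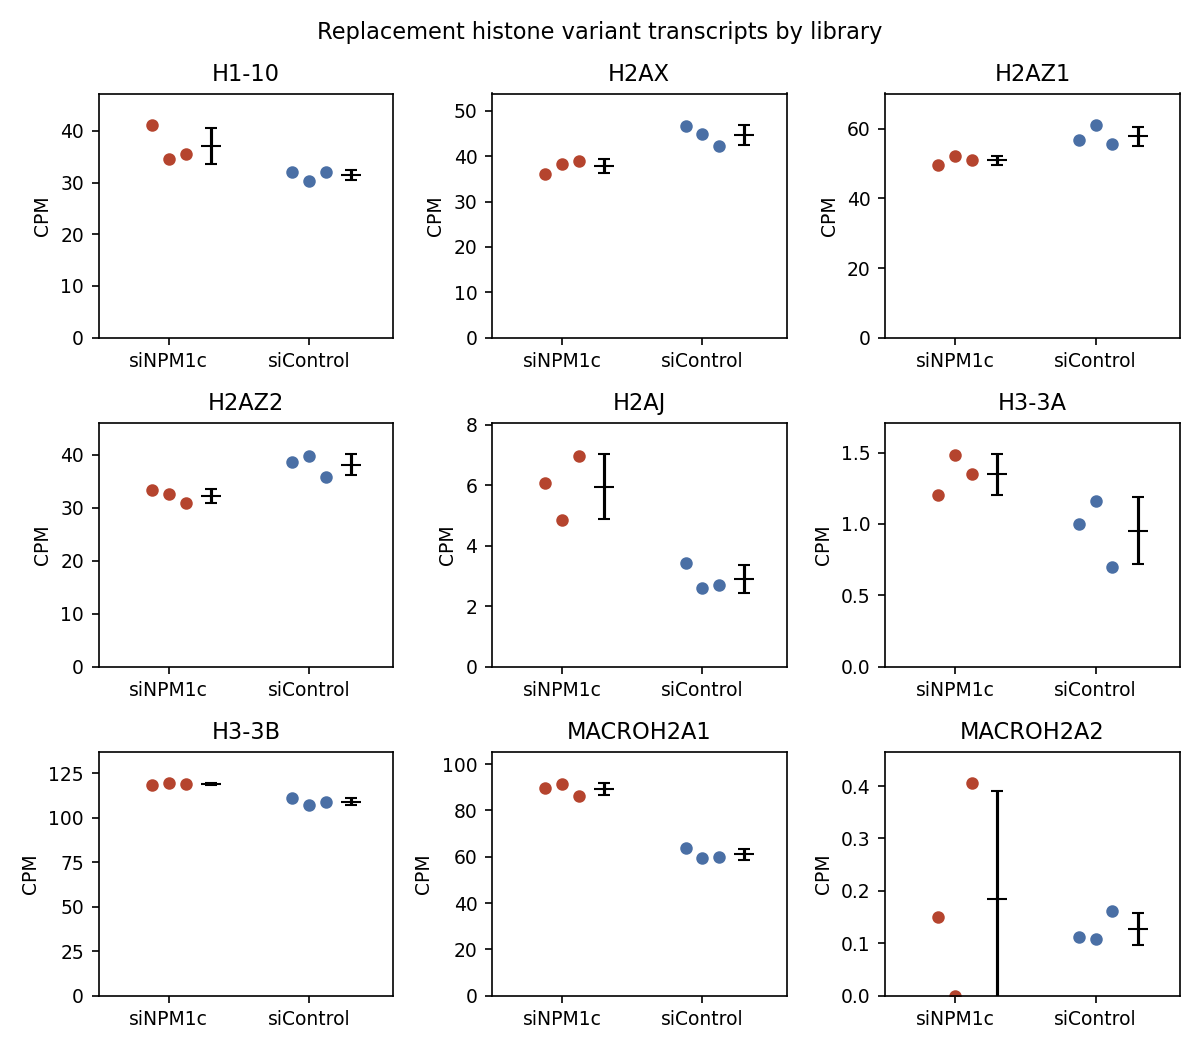
CPM of each replacement variant gene (vertical axis, linear from 0, scale differs by panel) in the 3 siNPM1c and 3 siControl libraries; points are libraries, and the black mark and bars are mean and SD (the bar of MACROH2A2 ends at the axis). The siNPM1c points of MACROH2A1 lie at 86.4 to 91.3 CPM and its siControl points at 59.6 to 63.9 CPM, while MACROH2A2 stays at 0.405 CPM or less in every library.

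Of the macroH2A genes, which encode H2A variants with a large C-terminal macro domain, only MACROH2A1 was present at a level that could be tested. GENCODE 29 on GRCh38, the source of all gene positions given here, places MACROH2A1 (Entrez 9555) at chr5:135333900-135399914 on the minus strand, and MACROH2A2 (Entrez 55506) at chr10:70052796-70112280 on the plus strand. MACROH2A1 had 89.9, 91.3 and 86.4 CPM in siNPM1c libraries, against 63.9, 59.6 and 59.8 CPM in siControl libraries. The lowest siNPM1c library thus lay well above the highest siControl library. Its log2 fold change was 0.55 ± 0.04 (SE), or 1.47-fold, and the adjusted p was 3.53e-33 (quasi-likelihood test of edgeR, Benjamini-Hochberg adjustment). MACROH2A1 therefore had the smallest adjusted p of the 9 genes, and its change was larger in size than that of 82.6% of all tested genes. On library sizes alone its log2 fold change was 0.08 (adjusted p = 0.0865). MACROH2A2, its paralog, had raw counts of 2, 0 and 6 in siNPM1c and of 2, 3 and 3 in siControl libraries. This gene failed the filter, and without any filter its log2 fold change was 0.39 ± 0.90 (SE) with an adjusted p of 0.792, so that a difference was not detectable at this depth. MACROH2A1 made up 99.8% ± 0.237 of the macroH2A counts in siNPM1c and 99.8% ± 0.0529 in siControl libraries.

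H2AJ, a mammalian H2A variant that differs from canonical H2A mainly at its C-terminus and is known to accumulate in senescent cells, had the largest fold change of the 8 tested genes. The annotation places H2AJ (Entrez 55766) at chr12:14774383-14778002 on the plus strand. It had 6.09, 4.84 and 6.96 CPM in siNPM1c libraries, against 3.45, 2.61 and 2.69 CPM in siControl libraries. The groups did not overlap, although the spread within the siNPM1c group was wide. The raw counts behind these levels were 81, 101 and 103 in siNPM1c and 62, 72 and 50 in siControl libraries. The log2 fold change was 1.02 ± 0.15 (SE), or 2.03-fold, with an adjusted p of 2.73e-09 by edgeR. Under library sizes alone it was 0.56 (adjusted p = 0.000631), so H2AJ was the sole member that was still called higher without the scaling.

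The H2A.Z genes, H2AZ1 and H2AZ2, encode near-identical proteins that the SRCAP and EP400 complexes place beside promoters. The annotation places H2AZ1 (Entrez 3015) at chr4:99948086-99950388 on the minus strand, and H2AZ2 (Entrez 94239) at chr7:44826791-44848083 on the minus strand. H2AZ1 had 49.6, 52.2 and 50.9 CPM in siNPM1c libraries, against 56.7, 61.0 and 55.7 CPM in siControl libraries, a log2 fold change of -0.19 ± 0.04 (SE, adjusted p = 0.000131 by edgeR). H2AZ2 had 33.3, 32.7 and 30.9 CPM in siNPM1c libraries, against 38.8, 39.7 and 35.9 CPM in siControl libraries, a log2 fold change of -0.24 ± 0.05 (adjusted p = 4.54e-05). Every siNPM1c library was below every siControl library for both genes. A difference in their balance was not detected, with H2AZ1 at 61.2% ± 1.26 of the counts of the pair in siNPM1c and 60.2% ± 0.759 in siControl libraries (exact two-sided permutation p = 0.4, adjusted p = 0.6 over 3 pairs, where 3 against 3 libraries allow no p below 0.1). This share does not depend on the scaling of libraries, and the difference of 0.929 percentage points was smaller than the SD of the siNPM1c libraries.

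H2AX, the variant whose serine near the C-terminus is phosphorylated by ATM, ATR and DNA-PK at DNA breaks, had 36.1, 38.3 and 39.0 CPM in siNPM1c libraries, against 46.6, 45.0 and 42.3 CPM in siControl libraries. The annotation places H2AX (Entrez 3014) at chr11:119093854-119095467 on the minus strand. The groups were separate, with a gap of a few CPM between the nearest libraries. The log2 fold change was -0.24 ± 0.05 (SE, adjusted p = 1.96e-05 by edgeR), and with a correction for GC content it was -0.36 (adjusted p = 8.26e-12). H2AX is a single-exon gene on chromosome 11 and is known to yield a stem-loop transcript as well as a polyadenylated one. A search of the GENCODE 29 coding transcripts of all 9 genes for the histone stem-loop (5′ arm GGNNNT, loop TTTN, 3′ arm ANNNCC, with 6 paired stem bases), read on the transcript strand, found it in H2AX and in no other member. The same search matched 0.281% of 19940 protein-coding genes, and 30 of 68 replication-dependent histone genes (44.1%). Among the 31 of these whose annotated transcript runs 60 bases or more past the stop codon, it matched 29 (93.5%). A match is a description of the letters and was not tested for function. The H2AX element is shown beside those of 4 replication-dependent genes, in each family the one with the smallest adjusted p among genes with a match, because it is what sets H2AX apart in sequence from the other 8 genes. Capitals mark the stem, the lower-case bases between them the loop, and the positions are in GRCh38.
H2AX, chr11:119094893-119094918, minus strand: acaaaGGCCCTtttaAGGGCCaccac
H2AC11, chr6:27133510-27133535, plus strand: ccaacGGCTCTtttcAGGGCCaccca
H2BC13, chr6:27807479-27807504, minus strand: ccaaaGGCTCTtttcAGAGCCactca
H3C10, chr6:27810511-27810536, plus strand: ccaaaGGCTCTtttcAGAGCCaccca
H4C8, chr6:26285126-26285151, minus strand: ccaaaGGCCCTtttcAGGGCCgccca

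The H2AX stem begins at base 53 counted from the first base of the stop codon, and 1044 bases of the annotated transcript follow the stem. The counts do not separate the short form from the long form. All 4 of the replication-dependent genes shown fell. They were chosen by smallest adjusted p from a list where 45 of 53 tested genes fell and 0 rose, so their fall follows from the choice. H2AC11 averaged 75.0 ± 1.54 CPM in siNPM1c and 98.1 ± 4.61 CPM in siControl libraries (log2 fold change -0.40 ± 0.04, SE), H2BC13 12.9 ± 1.24 in siNPM1c and 22.01 ± 2.03 CPM in siControl (-0.74 ± 0.08), H3C10 42.7 ± 1.06 in siNPM1c and 58.1 ± 2.83 CPM in siControl (-0.44 ± 0.05) and H4C8 21.2 ± 0.352 in siNPM1c and 30.3 ± 1.47 CPM in siControl (-0.52 ± 0.06). H2AX moved in the same direction with a smaller change than these chosen genes, and the difference between H2AX and them was not tested. Another 8 tested genes of the list were not called, among them H4C2 (-0.03 ± 0.04) and H4C9 (-0.01 ± 0.05).

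H3-3B, which encodes the replacement H3 variant H3.3, was the most abundant of the 9 genes in CPM. The annotation places H3-3B (Entrez 3021) at chr17:75776434-75785893 on the minus strand. It had 118.7, 119.4 and 119.1 CPM in siNPM1c libraries, against 111.3, 107.3 and 108.9 CPM in siControl libraries. The siNPM1c libraries agreed closely with each other and lay above every siControl library. The log2 fold change was 0.13 ± 0.03 (SE), or 1.09-fold, with an adjusted p of 0.000243 by edgeR, and its change was larger in size than that of 29% of all tested genes. The direction depends on the scaling, with -0.34 under library sizes alone, and the call was lost with the GC correction (0.07, adjusted p = 0.0561).

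H3-3A encodes the same H3.3 protein as H3-3B from a second gene on chromosome 1. The annotation places H3-3A (Entrez 3020) at chr1:226061851-226072001 on the plus strand. It had only 16, 31 and 20 raw counts in siNPM1c libraries and 18, 32 and 13 in siControl libraries, which is far below H3-3B. Its levels were 1.20, 1.49 and 1.35 CPM in siNPM1c and 1.00, 1.16 and 0.700 CPM in siControl libraries, with a log2 fold change of 0.48 ± 0.29 (SE) that did not pass the test (adjusted p = 0.171 by edgeR). H3P6, a processed pseudogene on chromosome 2 that is also known as H3F3AP4, had 173, 289 and 222 counts in siNPM1c libraries and 336, 504 and 336 in siControl libraries, many times those of H3-3A. The 411 annotated bases of H3P6 are identical to the coding region of H3-3A, with 0 mismatches, so reads from this stretch fit both places equally well. The coding regions of H3-3A and H3-3B differ at 88 of 411 bases, and their longest shared run is 14 bases. The first 60 coding bases show this, in GENCODE 29 on GRCh38, with capitals at the bases of H3-3B that differ from H3-3A.
H3-3A, chr1:226064352-226064411, plus strand: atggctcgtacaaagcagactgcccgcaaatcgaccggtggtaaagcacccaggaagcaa
H3P6, chr2:174719908-174719967, plus strand: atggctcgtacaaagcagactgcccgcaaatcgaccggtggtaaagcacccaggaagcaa
H3-3B, chr17:75779115-75779174, minus strand: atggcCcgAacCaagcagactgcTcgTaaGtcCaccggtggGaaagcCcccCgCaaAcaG

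H3P6 fell, at 13.0, 13.8 and 14.99 CPM in siNPM1c libraries against 18.7, 18.3 and 18.1 CPM in siControl libraries (log2 fold change -0.39 ± 0.08, SE, adjusted p = 6.19e-06 by edgeR). Another gene named as an H3 pseudogene, H3P4, had 59, 81 and 54 counts in siNPM1c and 61, 77 and 41 in siControl libraries. H3P4 rose (log2 fold change 0.51 ± 0.17, SE, adjusted p = 0.00981 by edgeR), and its likeness in sequence to H3-3A was not examined. When the counts of H3-3A and H3P6 were added, a choice made after the data had been seen, the sum averaged 15.3 ± 1.06 CPM in siNPM1c and 19.3 ± 0.457 CPM in siControl libraries. The log2 fold change of the sum was -0.33 ± 0.08 (SE, adjusted p = 7.90e-05), which turned the direction of H3-3A. The treatment of reads that fit several places is not given in the sources used here, so which locus the H3P6 reads came from cannot be told apart, and the level of H3-3A is uncertain. As counted, H3-3A made up 1.12% ± 0.113 of the H3.3 counts in siNPM1c and 0.866% ± 0.216 in siControl libraries (exact two-sided permutation p = 0.2, adjusted p = 0.6 over 3 pairs). With H3P6 added to H3-3A these shares were 11.4% ± 0.684 in siNPM1c and 15.025% ± 0.302 in siControl libraries, without overlap between the groups (exact permutation p = 0.1, the smallest that 3 against 3 libraries allow).

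**Figure D2:**
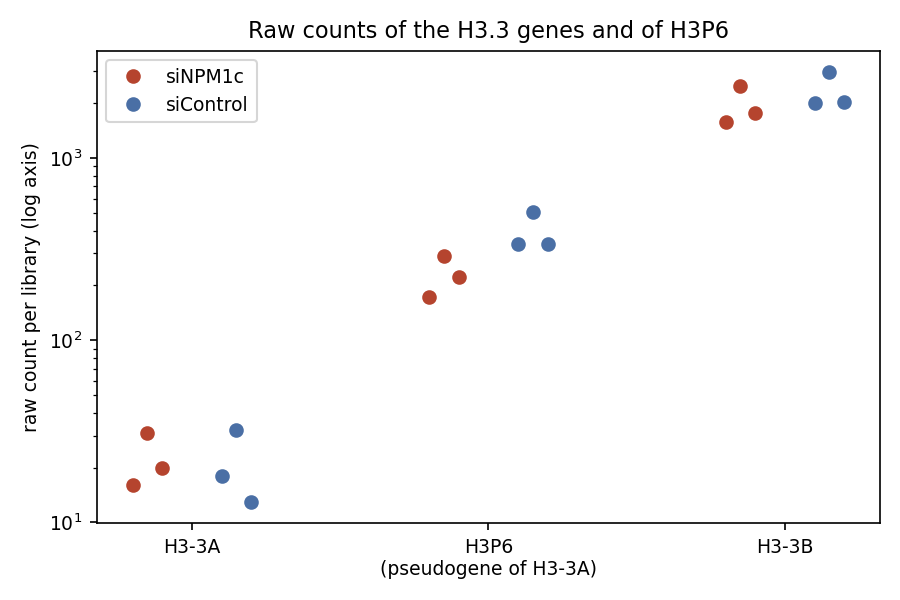
Raw counts per library on a log axis for H3-3A, its processed pseudogene H3P6 and H3-3B, with siNPM1c libraries left of siControl libraries for each gene. H3-3A lies at 13 to 32 counts and H3P6 at 173 to 504 counts, although their coding bases are identical.

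H1-10, a linker histone variant encoded by a single-exon gene on chromosome 3, had 41.1, 34.6 and 35.6 CPM in siNPM1c libraries, against 32.1, 30.3 and 32.04 CPM in siControl libraries. The annotation places H1-10 (Entrez 8971) at chr3:129314771-129316277 on the minus strand. Replicate 1 of siNPM1c was the highest library, and the other two lay nearer to the siControl group. The log2 fold change was 0.23 ± 0.05 (SE, adjusted p = 0.000207 by edgeR), and 0.17 without siNPM1c replicate 1 (adjusted p = 0.0200). H1-10 has the highest GC content of the 9 genes, 68.6%, and with the GC correction its log2 fold change was 0.09 (adjusted p = 0.156). Under library sizes alone it was -0.24.

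**Figure D3:**
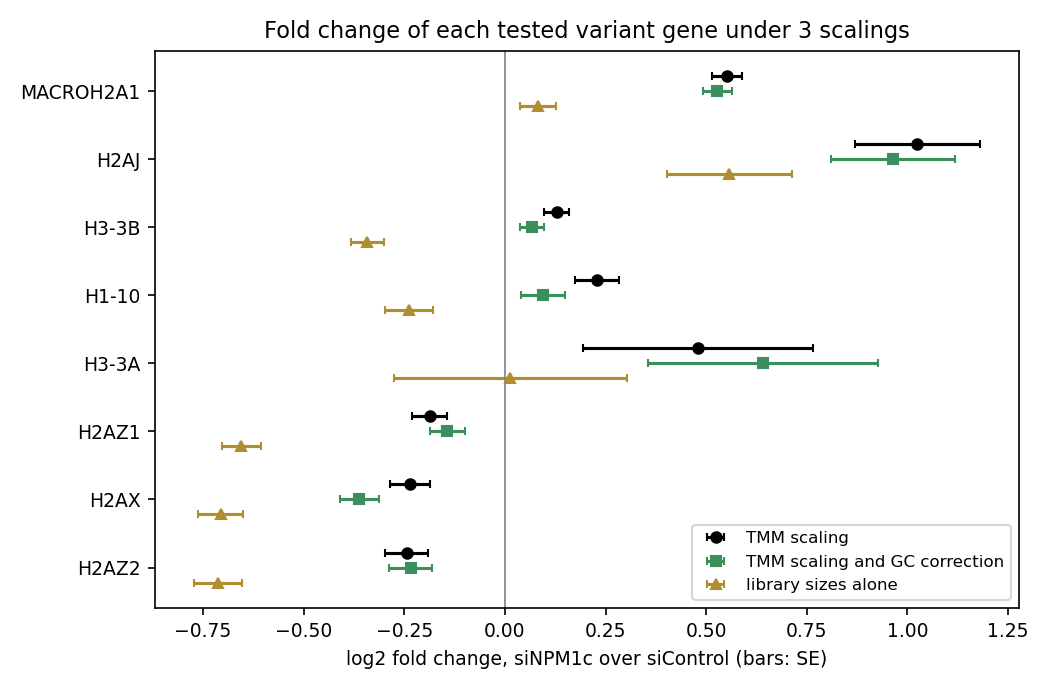
Log2 fold change, siNPM1c over siControl (horizontal axis), of the 8 tested genes under TMM scaling, under TMM scaling with a GC correction, and under library sizes alone; bars are SE. H2AX, H2AZ1 and H2AZ2 lie below 0 and H2AJ and MACROH2A1 above 0 under each of the 3, while H1-10 and H3-3B cross 0 under library sizes alone.

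Shares within a library do not depend on how libraries are scaled to each other. Within the summed CPM of the 9 genes, MACROH2A1 took 23.9% ± 0.528 in siNPM1c and 17.6% ± 0.440 in siControl libraries (SD, n = 3 each). H2AZ1 took 13.6% ± 0.386 in siNPM1c and 16.7% ± 0.809 in siControl, H2AX 10.1% ± 0.467 in siNPM1c and 12.9% ± 0.344 in siControl, and H2AZ2 8.64% ± 0.277 in siNPM1c and 11.0% ± 0.425 in siControl. Each of these 4 shares was separate between the groups. H3-3B took 31.9% ± 0.294 in siNPM1c and 31.5% ± 0.625 in siControl, a difference within the spread of the libraries. These shares add up to the whole, so a larger share of MACROH2A1 lowers the others.

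Levels between genes can be set side by side only per length. Per kilobase of all annotated exons, the levels in siNPM1c libraries were 24.6 ± 2.32 CPM for H1-10, 23.4 ± 0.925 for H2AX, 22.1 ± 0.564 for H2AZ1 and 19.4 ± 0.0559 for H3-3B. Neither H1-10 and H2AX nor H2AX and H2AZ1 differed beyond their spread. In siControl libraries the same 4 values were 20.9 ± 0.692, 27.6 ± 1.35, 25.1 ± 1.21 and 17.8 ± 0.325. H2AZ2 and MACROH2A1 followed, then H2AJ, H3-3A and MACROH2A2. The order depends on the length used. Per kilobase of the median coding transcript, H3-3B came first, at 175 ± 0.505 CPM in siNPM1c and 161 ± 2.93 CPM in siControl libraries. H2AZ1, at 52.0 ± 1.33 in siNPM1c and 59.0 ± 2.85 CPM in siControl, and H2AZ2, at 49.1 ± 1.95 in siNPM1c and 58.0 ± 3.02 CPM in siControl, followed without a difference beyond their spread in siControl libraries. MACROH2A1 was at 48.0 ± 1.36 in siNPM1c, close to H2AZ2, and at 32.9 ± 1.31 CPM in siControl libraries.

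Most of the clustered replication-dependent histone genes fell. Of 53 tested, 45 fell and 0 rose by edgeR, where 21.4% of all tested genes fell. At an unadjusted p under 0.05, 1 was higher, and DESeq2 called 0 higher. Their median log2 fold change was -0.46. Among the 8 tested replacement variants 4 were higher and 3 lower. As a share of the counts of their family, replacement variants were larger in siNPM1c libraries in each family. For H3, H3-3A and H3-3B together held 32.2%, 32.7% and 32.6% of the counts in siNPM1c libraries, against 24.5%, 24.7% and 24.6% in siControl libraries, with 13 replication-dependent H3C genes as the rest. Among these 13, H3C8, H3C14 and H3C15 had 0 counts in every library. H3P6 was left out of the H3 family, although which locus its reads came from cannot be told. For H2A, the 6 variants held 36.9%, 38.1% and 37.2% in siNPM1c libraries, against 30.8%, 30.8% and 30.6% in siControl libraries, with 17 H2AC genes as the rest. Of these 6, MACROH2A1 and H2AJ rose while H2AX, H2AZ1 and H2AZ2 fell. Their summed CPM was 216 ± 2.61 in siNPM1c and 205 ± 7.03 in siControl libraries. The macroH2A genes alone summed to 89.4 ± 2.33 CPM in siNPM1c and 61.2 ± 2.42 CPM in siControl libraries. A share without MACROH2A1 was not computed. For H1, H1-10 held 12.3%, 10.9% and 11.4% in siNPM1c libraries, against 8.19%, 7.93% and 8.29% in siControl libraries, with H1-1 to H1-5 as the rest. The groups were separate in all 3 families (exact two-sided permutation p = 0.1 in each, adjusted p = 0.1 over the 3 families, the smallest that 3 against 3 libraries allow). These family shares were added after the data had been seen, they rest on raw counts without regard to length, and near-identical copies among the replication-dependent genes make single genes uncertain.

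**Figure D4:**
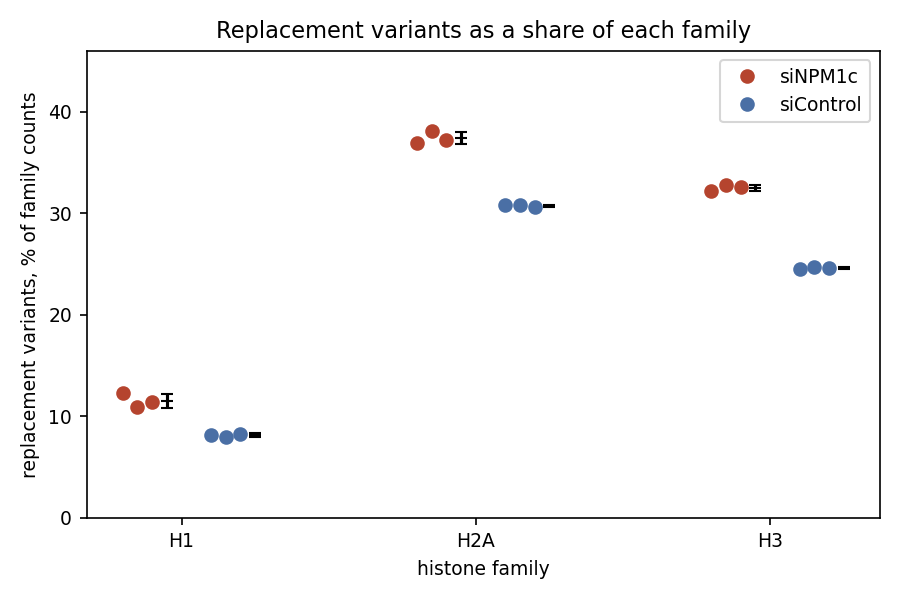
Replacement variants as a percentage of the raw counts of their histone family (vertical axis, from 0) in each library, with siNPM1c left of siControl; black marks and bars are mean and SD over 3 libraries. The siNPM1c means are 11.5%, 37.4% and 32.5% for H1, H2A and H3, and the siControl means are 8.14%, 30.7% and 24.6%.

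Further histone variants outside the 9 genes were read from the same fit. H3-5, an H3.3-like gene known from testis, rose at a low level, with 1.95 ± 0.144 CPM in siNPM1c against 0.921 ± 0.0421 CPM in siControl libraries (log2 fold change 1.07 ± 0.26). Its raw counts were 28, 40 and 27 in siNPM1c and 16, 25 and 18 in siControl libraries. The likeness of H3-5 in sequence to H3-3B was not examined, and the treatment of reads that fit several places is not given. CENPA, the H3 variant of centromeres, fell to 2.38 ± 0.282 CPM in siNPM1c, against 3.49 ± 0.615 CPM in siControl libraries (-0.53 ± 0.18, adjusted p = 0.0122). CENPA no longer passed when siControl replicate 1 was left out (-0.40, adjusted p = 0.109). The same held when siNPM1c replicate 2 was left out (-0.48, adjusted p = 0.0740) and for DESeq2 (-0.54, adjusted p = 0.0772).

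Of 23 tested genes that place H2A.Z into chromatin or take it out, 8 fell and 0 rose by edgeR, with a median log2 fold change of -0.10. The share called was below the 42.7% of all tested genes, of which 21.4% fell and 21.3% rose. At an unadjusted p under 0.05, 1 was higher, and DESeq2 called 0 higher. MORF4L1, a chromodomain subunit of the NuA4/TIP60 complex, averaged 14.7 ± 0.398 CPM in siNPM1c and 23.1 ± 0.696 CPM in siControl libraries (-0.66 ± 0.07, SE). The bromodomain subunit gene BRD8 was at 6.82 ± 0.523 in siNPM1c and 10.1 ± 0.238 CPM in siControl (-0.57 ± 0.11), and the actin-related subunit gene ACTL6A at 3.24 ± 0.0738 in siNPM1c and 5.11 ± 0.476 CPM in siControl (-0.65 ± 0.15). SRCAP and EP400, the motor subunits that exchange H2A.Z, named here after their values were seen, had log2 fold changes of 0.06 ± 0.03 and -0.01 ± 0.04 (adjusted p = 0.115 and 0.813). The count of lower genes was 5 without siNPM1c replicate 1, 4 without siNPM1c replicate 2, and 4 with DESeq2, and 1 gene was called higher without siNPM1c replicate 3 and with protein-coding genes only.

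Among 11 tested chaperones of H3.3 and of H3-H4, 3 rose and 1 fell, with a median of 0.11. The share called was below the 42.7% of all tested genes. The count of higher genes was 5 with the GC correction and 5 with protein-coding genes only. HIRA, which places H3.3 at active genes, averaged 48.6 ± 2.18 CPM in siNPM1c and 40.5 ± 1.89 CPM in siControl libraries (0.25 ± 0.05, SE), its partner gene UBN1 40.4 ± 1.24 in siNPM1c and 35.7 ± 1.31 CPM in siControl (0.17 ± 0.05), and DEK 11.9 ± 0.605 in siNPM1c and 8.86 ± 0.434 CPM in siControl (0.42 ± 0.10). Under library sizes alone these 3 turned to -0.22, -0.29 and -0.05. ATRX, which with DAXX places H3.3 at telomeres and repeats, fell to 6.34 ± 1.10 CPM in siNPM1c, against 8.57 ± 1.21 CPM in siControl libraries (-0.39 ± 0.12). That call was lost with the GC correction (-0.14, adjusted p = 0.341), without siControl replicate 3 (-0.28, adjusted p = 0.0664) and without siNPM1c replicate 3 (-0.28, adjusted p = 0.0652).

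Of 9 tested chaperones of H2A-H2B, H1 and macroH2A, 4 fell and 1 rose, with a median of -0.22, where 21.4% of all tested genes fell and 21.3% rose. SSRP1, a subunit of the FACT complex that moves H2A-H2B during transcription, averaged 37.8 ± 3.83 CPM in siNPM1c and 47.6 ± 0.316 CPM in siControl libraries (-0.33 ± 0.05, SE), and NAP1L1 11.5 ± 0.955 in siNPM1c and 16.8 ± 1.23 CPM in siControl (-0.55 ± 0.08). With the GC correction NAP1L1 was at -0.31 (adjusted p = 0.000859). SUPT16H, the other FACT subunit, was at 21.3 ± 1.45 in siNPM1c and 24.7 ± 1.496 CPM in siControl (-0.22 ± 0.07). The SUPT16H call was lost without siNPM1c replicate 2 (-0.18, adjusted p = 0.0658), with DESeq2 (-0.21, adjusted p = 0.0544) and with the GC correction (-0.10, adjusted p = 0.221), and the count of lower genes was 2 in each of these 3 settings. NCL, the gene of nucleolin, was at 77.9 ± 5.40 in siNPM1c and 71.8 ± 0.258 CPM in siControl (0.11 ± 0.04, adjusted p = 0.0149), with 0.16 under the GC correction, and it turned to -0.36 under library sizes alone. The NCL call was lost when siNPM1c replicate 1 (0.09, adjusted p = 0.0671) or siNPM1c replicate 3 (0.07, adjusted p = 0.175) was left out, without the filter on low counts (0.08, adjusted p = 0.0953) and with DESeq2 (0.12, adjusted p = 0.0801).

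Of 18 tested genes that phosphorylate H2AX or act on the mark, 8 fell and 1 rose, with a median of -0.17. The share called was near the 42.7% of all tested genes. The kinase genes had the smallest adjusted p of those that fell. PRKDC, the catalytic subunit of DNA-PK, averaged 173 ± 1.62 CPM in siNPM1c and 259 ± 3.93 CPM in siControl libraries (-0.58 ± 0.02, SE), ATM 47.6 ± 1.75 in siNPM1c and 61.4 ± 3.50 CPM in siControl (-0.36 ± 0.04), and ATR 4.13 ± 0.415 in siNPM1c and 6.55 ± 0.0844 CPM in siControl (-0.69 ± 0.14). RNF168, a ubiquitin ligase that acts after the mark, was the gene that rose, at 6.42 ± 0.530 in siNPM1c and 4.86 ± 0.336 CPM in siControl (0.42 ± 0.13), with -0.05 under library sizes alone. With the GC correction 4 genes of this list were lower and 3 higher, and ATM was at -0.12 (adjusted p = 0.0172) and ATR at -0.43 (adjusted p = 0.006185).

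Genes of replication-dependent histone transcription and 3' end processing were counted for comparison. Of 7 tested, 4 fell and 0 rose, with a median of -0.39, where 21.4% of all tested genes fell. At an unadjusted p under 0.05, 1 was higher, and DESeq2 called 0 higher. NPAT, the coactivator of the clustered histone genes, averaged 1.23 ± 0.572 CPM in siNPM1c and 2.86 ± 0.633 CPM in siControl libraries (-1.17 ± 0.22, SE), CASP8AP2 3.68 ± 0.411 in siNPM1c and 5.36 ± 0.544 CPM in siControl (-0.56 ± 0.15), and LSM11, a subunit of the U7 particle, 5.06 ± 0.257 in siNPM1c and 6.63 ± 0.116 CPM in siControl (-0.40 ± 0.13). With the GC correction the calls of CASP8AP2 (-0.31, adjusted p = 0.0854) and LSM11 (-0.29, adjusted p = 0.0621) were lost. The LSM11 call was also lost with DESeq2 (-0.39, adjusted p = 0.0570) and without siNPM1c replicate 2 (-0.36, adjusted p = 0.0528). The count of lower genes was 2 in each of these 3 settings, and 1 gene was called higher without siControl replicate 2, without siNPM1c replicate 1 and with protein-coding genes only.

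**Figure D5:**
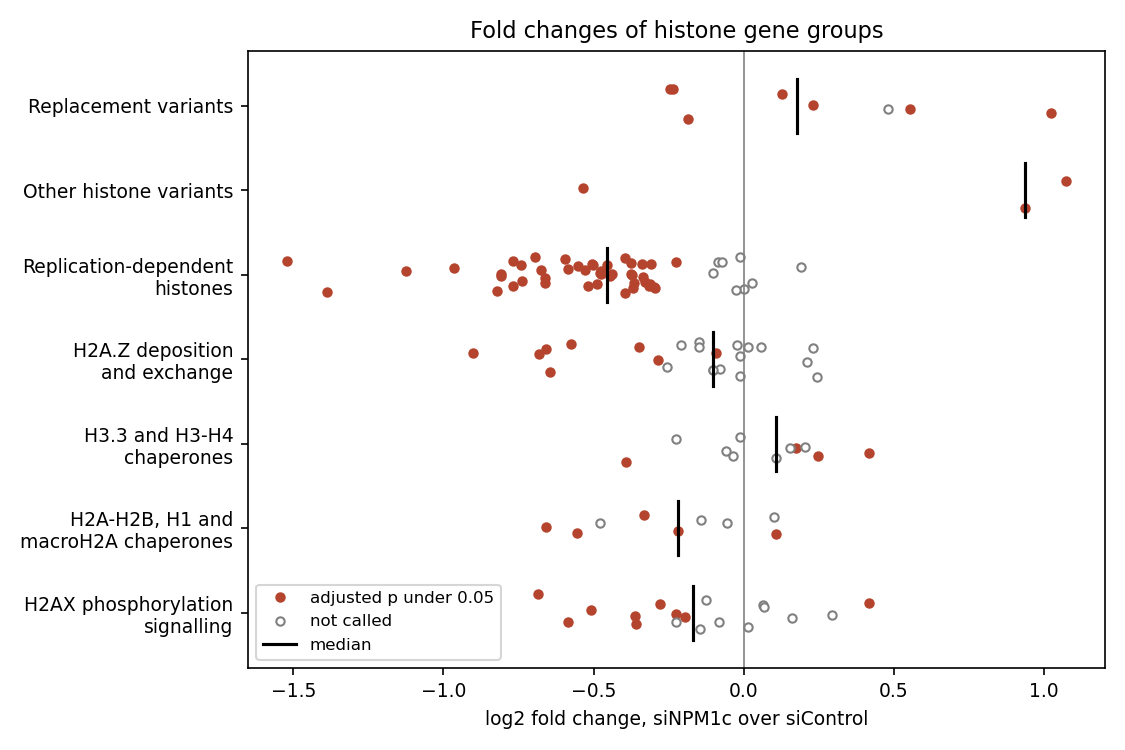
Log2 fold change, siNPM1c over siControl under TMM scaling (horizontal axis), of the tested genes of 7 groups; filled points passed an adjusted p under 0.05, open points did not, and black lines are medians. The replacement variants lie on both sides of 0 with a median of 0.18, and the replication-dependent histones have a median of -0.46.

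For each tested member the most similar gene over the 6 libraries was sought by Pearson's r of log2 CPM among 131 genes of these lists and the other members. MACROH2A1 and H3-3B were most like each other (r = 0.987). H2AX was most like the replication-dependent gene H3C10 (r = 0.970) and H2AZ2 most like H2AC4 (r = 0.972), while H2AZ1 was most like the phosphatase gene PPP4C (r = 0.968). The nearest genes of H1-10, H2AJ and H3-3A were CHAF1A (0.950), H3-3B (0.950) and KAT5 (0.915). The points share libraries and depth and fall into the 2 treatment groups, so the group difference enters every r, and no p is given.

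The 250 bases upstream of the RefSeq transcription starts were searched on both strands for the CCAAT box, as CCAAT or ATTGG, and on the gene's strand for TATAAA, because genes that share promoter letters can be compared with those that moved together. At least 3 CCAAT boxes were found for H2AX (4), H2AZ1 (3) and H2AZ2 (4), which fell, and for H2AJ (3) and H3-3B (4), which rose. Among 14759 windows of 10195 tested genes, 4.14% held at least 3, and 32.8% held at least 1. TATAAA stood in the windows of H1-10, H2AX, H2AZ1 and H3-3B, beside 3.86% of all windows. H1-10 and MACROH2A2 had 0 CCAAT boxes, the 2 windows of MACROH2A1 had 0 and 2, and the 4 windows of H3-3A had 0 to 1. The numbers of boxes overlapped between the genes that fell (3 to 4) and those that rose (0 to 4), and a link between boxes and direction was not tested. The 5 windows with at least 3 boxes are printed from RefSeq on GRCh38.p14, 5′ to 3′ on the gene's strand and ending at the base before the start, with the letters of CCAAT boxes on either strand and of TATA boxes in capitals.
H2AX, chr11:119095466-119095715, minus strand: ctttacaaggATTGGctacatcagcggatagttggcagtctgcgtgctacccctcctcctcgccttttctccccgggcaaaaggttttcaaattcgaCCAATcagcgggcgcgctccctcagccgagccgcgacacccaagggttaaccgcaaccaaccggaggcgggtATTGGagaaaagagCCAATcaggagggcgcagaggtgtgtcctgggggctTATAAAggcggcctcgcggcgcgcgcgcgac
H2AZ1, chr4:99950276-99950525, minus strand: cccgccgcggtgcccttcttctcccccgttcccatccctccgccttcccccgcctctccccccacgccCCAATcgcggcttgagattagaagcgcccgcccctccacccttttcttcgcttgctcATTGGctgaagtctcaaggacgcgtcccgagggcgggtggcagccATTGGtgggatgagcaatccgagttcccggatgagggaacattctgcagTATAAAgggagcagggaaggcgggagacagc
H2AZ2, chr7:44848088-44848337, minus strand: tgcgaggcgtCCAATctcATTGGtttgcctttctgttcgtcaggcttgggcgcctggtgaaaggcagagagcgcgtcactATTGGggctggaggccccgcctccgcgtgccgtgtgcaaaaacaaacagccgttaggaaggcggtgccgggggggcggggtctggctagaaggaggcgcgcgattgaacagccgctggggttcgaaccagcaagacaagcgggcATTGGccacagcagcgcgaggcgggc
H2AJ, chr12:14774155-14774404, plus strand: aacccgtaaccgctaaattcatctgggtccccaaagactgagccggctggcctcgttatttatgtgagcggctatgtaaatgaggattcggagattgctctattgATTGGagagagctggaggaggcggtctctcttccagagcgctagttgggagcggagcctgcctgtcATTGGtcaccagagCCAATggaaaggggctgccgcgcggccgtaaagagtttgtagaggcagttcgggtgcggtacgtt
H3-3B, chr17:75779780-75780029, minus strand: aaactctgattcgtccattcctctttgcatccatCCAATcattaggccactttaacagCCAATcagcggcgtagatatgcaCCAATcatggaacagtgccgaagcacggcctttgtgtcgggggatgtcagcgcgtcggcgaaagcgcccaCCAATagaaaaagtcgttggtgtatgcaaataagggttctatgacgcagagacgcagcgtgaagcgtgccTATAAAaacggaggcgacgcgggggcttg

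These letters are a description and do not show that a factor binds there. Some members share ground with other annotated genes, and without a stated strand setting their reads cannot be told apart. In GENCODE 29 the exons of MACROH2A1 overlap those of the opposite-strand gene PITX1-AS1 (C5orf66) by 4968 bases, and PITX1-AS1 had 34, 46 and 36 counts in siNPM1c and 36, 48 and 31 in siControl libraries. H3-3B overlaps the opposite-strand gene UNK by 214 bases, and UNK had 321, 427 and 308 counts in siNPM1c and 337, 569 and 367 in siControl libraries. H1-10 overlaps its antisense gene H1-10-AS1 by 345 bases and H2AZ1 overlaps H2AZ1-DT by 223 bases, at 17 counts or fewer in every library. For H2AX, H2AZ2 and H2AJ the annotation lists 0 overlapping genes.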

How the data were processed

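RNA sequencing of total RNA was analysed from 6 libraries of OCI-AML3 cells. Gene counts were deposited by the authors in 1 table with Entrez identifiers, and they are raw counts. Without roles, the submitters' processing notes list the builds hg38 and mm10, DESeq2 1.34.0, the aligner STAR 2.7.5a, the trimmer cutadapt 2.6 and the software CASAVA 1.8. The counting tool, annotation and strand setting are not given in the sources used here. Of 28307 genes, 28261 matched a symbol in the RefSeq table (GRCh38.p14). Within groups, the chi-square of counts between libraries per degree of freedom (genes with at least 20 counts) was 1.46 to 2.36, so no library was a copy of another.

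The counts were fitted with edgeR 4.0.16 under R 4.3.3 (filterByExpr set to 10 counts per gene and 15 in total, TMM, glmQLFit with robust = TRUE, glmQLFTest, two-sided, Benjamini-Hochberg over all tested genes). A gene is called at an adjusted p under 0.05. SE is the absolute log2 fold change over the square root of F. The method was run on simulated counts with known changes, and it recovered 46.9% of 1.25-fold and 92% of 2-fold changes. Of its 160 calls 8 were false. Changes smaller than 1.25-fold were not simulated. Every simulated gene had the same biological coefficient of variation (2.17%), and the ribosomal RNA share did not differ by group, so the simulation is simpler than the data. GC content, lengths and transcripts came from GENCODE 29 (GRCh38), and promoters from RefSeq. Alternatives used DESeq2 1.42.0 and limma 3.58.1 (voom), and the GC correction was a lowess (span 0.3) offset per library.

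The members and the gene lists were chosen with earlier results of these data known. Named genes were all members, NPM1, CENPA, and up to 3 called genes per list and direction with the smallest adjusted p. Those of the replication-dependent list (H2AC12, H2AC11 and H3C4) are represented by H2AC11, and the other stem-loop genes were chosen after their values were seen. Some genes of the lists are not reported here.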

Additional observations from a re-analysis of the deposited data

How the results depend on the processing

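H2AX, H2AZ1 and H2AZ2 stayed lower and H2AJ higher, each still called, in every alternative that gave a value (15 for the first 3 genes and 14 for H2AJ, which the filter of 5 CPM removed). Under library sizes alone, which moved the median gene to -0.48 log2, 9760 genes were called in place of 5522 (507 higher and 9253 lower, in place of 2756 and 2766), H1-10 turned to -0.24 and H3-3B to -0.34, and MACROH2A1 was 0.0817, not called. The same setting turned NCL to -0.36, RNF168 to -0.053, HIRA to -0.22, DEK to -0.0517 and UBN1 to -0.29. It left 1 member higher and 5 lower, in place of 4 and 3. With the GC correction H1-10 was 0.0943 and H3-3B 0.0682, neither called, which left 2 members higher. Adding the counts of H3P6 turned H3-3A to -0.33 and its share of the H3.3 counts to a difference of -3.64 percentage points. Leaving out each library kept the direction and call of all 8 tested members. The difference in the share of MACROH2A1 within the counts of MACROH2A1 and MACROH2A2 ran from -0.109 to 0.125 percentage points across these, and as a log2 ratio it was 0.80. The replicate block called 5586 genes and changed no call of a member. Deviations of same-numbered libraries correlated at 0.0193, -0.00266 and -0.00408, which shows no sign of pairing. The spread within groups was small, so this check cannot decide whether the numbers pair the samples. Of 240 counts over gene lists, 200 stayed within 1.5 times. Under library sizes alone the lower counts were 20 for the H2A.Z list, 10 for the H3 chaperones, 9 for the other chaperones, 16 for the H2AX list and 7 for histone RNA processing. DESeq2 called 3831 genes. The causes were not tested. MACROH2A2 had 0 to 6 counts per library and H3-3A 13 to 32, and reads shared with H3P6 limit H3-3A as well.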
